A study of Mus musculus with 38 samples.

Results

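The 10 genes described here make, load and control the MHC class II molecule of the mouse, out of 55487 genes in the expression tables of the series. They were chosen by name and function: the chains of the presenting molecules (H2-Aa, H2-Ab1, H2-Eb1), the invariant chain (Cd74), the peptide editor H2-DM (H2-DMa, H2-DMb1, H2-DMb2), the modulator H2-DO (H2-Oa, H2-Ob) and the coactivator of them all (Ciita). All 10 were found, and all 10 passed the filter on low counts in tumors (at least 1 CPM, the count scaled to a common library total, in at least 25% of the tumors). RNA was sequenced from omental tumors of 2 syngeneic models of high-grade serous ovarian cancer, in which cells of the murine lines 60577 or HGS2 were injected into the peritoneal cavity of female mice aged 8 to 9 weeks. The 60577 cells grew in FVB mice and the HGS2 cells in C57BL/6J mice, so that the model and the strain of the host cannot be told apart. Treated mice received 3 weekly doses of carboplatin (20 mg/kg) with paclitaxel (10 mg/kg), beginning 21 days after injection of 60577 and 49 days after injection of HGS2, and control mice with the same tumors received the vehicle alone, per the study's methods. Tumors were taken 1 day (TP1), 7 days (TP2) or 21 days (TP3) after the last dose, and the treated TP3 tumors were set against the TP2 controls because TP3 has no control group here. The 60577 model had 3 control and 3 treated tumors at TP1, 3 and 4 at TP2, and 4 treated tumors at TP3. The HGS2 model had 3 and 3 at TP1, 4 and 3 at TP2, and 4 treated at TP3, of which replicate 1 was kept out of the tests and is given in brackets. Each cell line grown alone gave 2 libraries. Every tumor is a whole piece of tissue holding both cancer and host cells.

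MHC class II molecules show peptides from proteins taken up by a cell to CD4+ T cells, and are best known on dendritic cells, B cells and macrophages. The α and β chains (H2-Aa with H2-Ab1, and H2-Ea with H2-Eb1) are assembled on the invariant chain, which fills the groove and guides the complex to endosomes. There H2-DM removes the remaining fragment of the invariant chain and edits the bound peptides, while H2-DO, known mostly from B cells, holds H2-DM back. CIITA binds no DNA itself and works through RFX, CREB and NF-Y factors seated on the X and Y boxes of the class II promoters. Many carcinomas express the genes only weakly unless interferon gamma induces Ciita.

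The 8 H2 genes lay on chromosome 17 between 34092340 and 34316674 (GRCm38, GENCODE M21), and Ciita lay at chr16:10480059-10528418. RefSeq promoter windows on GRCm38.p6, from 250 bases before to 50 after the transcript start, were matched for 7 of the 10 genes (8 windows, since H2-DMa has 2). H2-Ab1, Cd74 and Ciita had no window. The Y box letters GATTGG, searched on both strands, occurred in 7 of the 8 windows and in 16.1% of all 32851 windows. The X box letters TNGNNAC, the shorter conserved core, occurred in 6 of the 8 and in 78.0% of all windows. An X box followed by a Y box 20 to 45 bases further on, in the same orientation, occurred in 4 of the 8 windows (H2-DMb1, H2-Ob, H2-Aa and H2-Eb1) and in 1.44% of all windows. The stretches below run 5′ to 3′ on the strand of the gene, a short way before the RefSeq start. They are shown to place the letters of the shared control element side by side. The letters are those of the reference genome, whose alleles differ from those of FVB mice at this locus. Differences between treated and control tumors were called in these genes only in tumors grown in FVB mice. Whether the letters bear on the levels was not tested. Capitals mark the Y box, and the X box where a Y box follows it within that distance.
H2-Aa, chr17:34287862-34287928, minus strand: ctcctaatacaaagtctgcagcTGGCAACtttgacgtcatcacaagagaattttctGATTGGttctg
H2-Eb1, chr17:34305762-34305828, plus strand: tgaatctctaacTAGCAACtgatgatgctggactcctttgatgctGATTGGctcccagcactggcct
H2-Ob, chr17:34238800-34238866, plus strand: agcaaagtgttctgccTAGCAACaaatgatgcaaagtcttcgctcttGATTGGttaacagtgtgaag
H2-DMb2, chr17:34145144-34145210, plus strand: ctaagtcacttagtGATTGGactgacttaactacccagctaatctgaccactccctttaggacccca
H2-Oa, chr17:34092274-34092340, plus strand: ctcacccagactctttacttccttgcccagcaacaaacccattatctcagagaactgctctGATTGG
In H2-Aa, H2-Eb1 and H2-Ob the X box began 34, 33 and 31 bases before the Y box. H2-DMb2 and H2-Oa carried Y box letters without that pair, which says only that the searched letters do not occur together in this window. In H2-Oa, letters that miss the searched X box only in its first base stand before the Y box within that distance. They are not in capitals, and H2-Oa cannot be said to lack an X box. H2-DMb1, which has the pair, is not shown because its stretch lies in an annotated untranslated region.

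Read depth ran from 17839635 to 49299442 counts over the 34 tumors and from 31633121 to 42461995 over the 4 cell line libraries. Of the 44 pairs of replicates, none agreed within sampling noise. Counts from 6 pancreatic acinar genes made up 4.21% of HGS2 TP1 control replicate 3, 6.56% of TP2 control replicate 2 and 4.42% of TP3 treated replicate 2, so these tumors hold RNA of pancreas. Summed epithelial marker levels ran from 1649 to 2383 CPM in the 60577 controls and from 42.0 to 795 CPM in the HGS2 controls, and Ptprc was detected in every tumor. In bulk tumors, more cells of a type and more RNA per cell cannot be told apart, and this holds for every level below.

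Levels per length (RPKM, the CPM per kilobase of exon) put the invariant chain first in both models. Over the 6 60577 controls, Cd74 had a median of 921 RPKM (265 to 1218), above every value of H2-Ab1 (median 135, 32.6 to 189). H2-Aa followed at a median of 50.4 RPKM (11.6 to 69.4). The peptide editor genes came next and did not separate from each other or from Ciita, with medians of 12.2 RPKM for H2-DMa, 12.1 for H2-DMb1 and 10.98 for H2-DMb2 beside 9.91 for Ciita (2.49 to 14.4). H2-Eb1 lay lower, at a median of 3.76 RPKM (0.942 to 5.37). The H2-DO genes were lowest, H2-Ob at a median of 0.83 RPKM (0.179 to 1.21) and H2-Oa at one of 0.675 (0.243 to 1.34), which overlapped. Over the 7 HGS2 controls, Cd74 had a median of 941 RPKM (189 to 1476) and H2-Eb1 one of 390 (66.6 to 564), ahead of H2-Ab1 (248, 46.7 to 392) and H2-Aa (163, 30.5 to 242), although neighbours in this order overlapped. H2-DMb1 had a median of 30.6 RPKM (8.67 to 59.5) and H2-DMa one of 15.3 (4.72 to 26.8). Ciita at 6.08 RPKM, H2-DMb2 at 5.32, H2-Oa at 2.12 and H2-Ob at 1.40 also overlapped. The plot of levels per length shows the change of place of H2-Eb1 between the models.

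**Figure D1:**
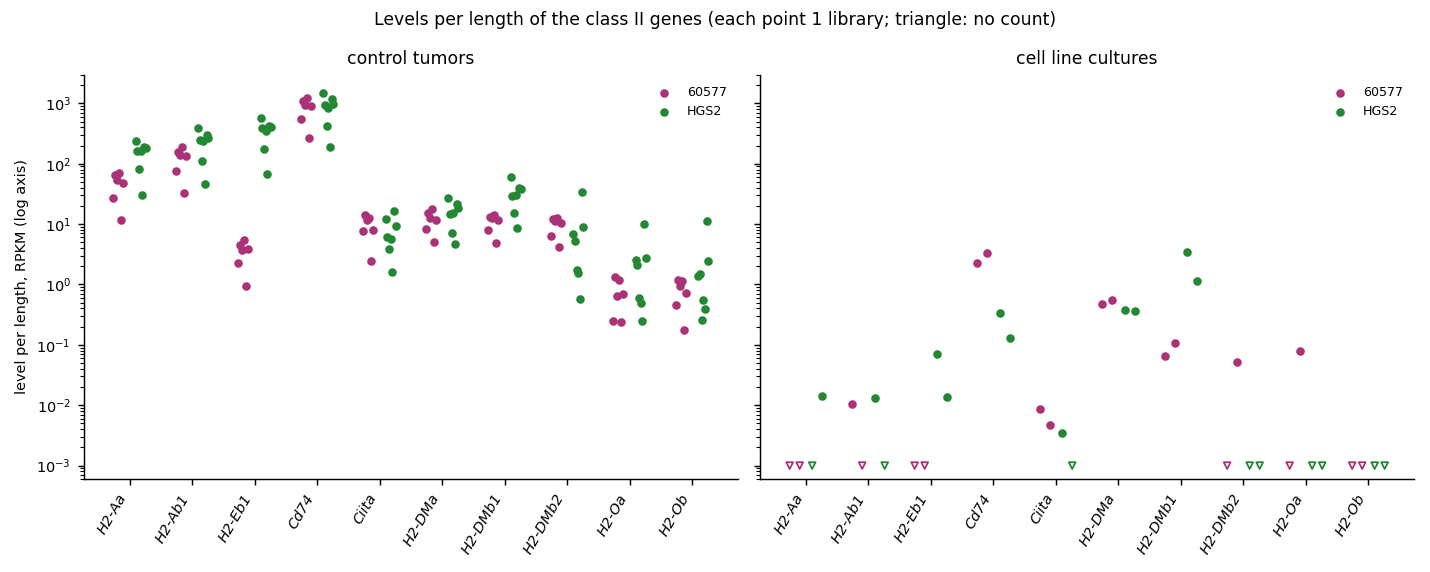
Level of each gene per length (RPKM, log axis) in the control tumors on the left (6 of 60577, 7 of HGS2) and in the cell lines grown alone on the right (2 libraries each), 1 point per library and a triangle where there was no count. Among the tumors Cd74 is highest in both models, with medians of 921 and 941 RPKM, and H2-Eb1 lies at a median of 3.76 RPKM in 60577 and of 390 in HGS2.

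One day after the last dose, the class II genes of 60577 tumors showed no called difference between treated and control tumors. A gene was called where the adjusted p of edgeR's quasi-likelihood test was below 0.05 and the absolute log2 fold change above 1. H2-Ab1, the β chain of the A molecule, stood at 192, 400 and 356 CPM in the controls and at 167, 411 and 223 CPM in the treated tumors. The groups overlapped, and the log2 fold change was -0.24 (SE 0.51, adjusted p = 0.754). Ciita stood at 73.2, 137 and 112 CPM in the controls and at 43.4, 101 and 60.1 CPM in the treated tumors, which also overlapped (log2 fold change -0.66, SE 0.43, adjusted p = 0.266). The others had log2 fold changes of -0.36 for H2-Aa, 0.14 for H2-Eb1, -0.30 for Cd74, -0.01 for H2-DMa, -0.19 for H2-DMb1, -0.08 for H2-DMb2, 0.82 for H2-Oa and 0.13 for H2-Ob. Over the 10 genes they ran from -0.66 to 0.82, with a median of -0.14 against -0.01 over all genes tested. None of the 10 was called by edgeR, DESeq2 or limma-voom and none had an unadjusted p under 0.05, while 15.5% of the 16241 genes tested were called, 9.52% as higher and 6.03% as lower. The pan-leukocyte gene Ptprc rose in the same tumors (log2 fold change 1.12, SE 0.22, adjusted p = 0.00153).

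At 7 days, 5 of the 10 genes were higher in the treated 60577 tumors than in their controls, and they were H2-Oa, H2-Ob, Ciita, H2-Eb1 and H2-DMb2. This count stood against 15.0% of all genes called as higher, and 9.36% were called as lower, none of them a class II gene. All 10 log2 fold changes were positive, with a median of 1.09 against 0.04 over all genes. DESeq2 and limma-voom also called 5 each. Without TP2 control replicate 2, which had the lowest class II levels of the controls, 3 genes were called, because H2-DMb2 (log2 fold change 0.83) and H2-Eb1 (0.88) came under the fold limit.

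**Figure D2:**
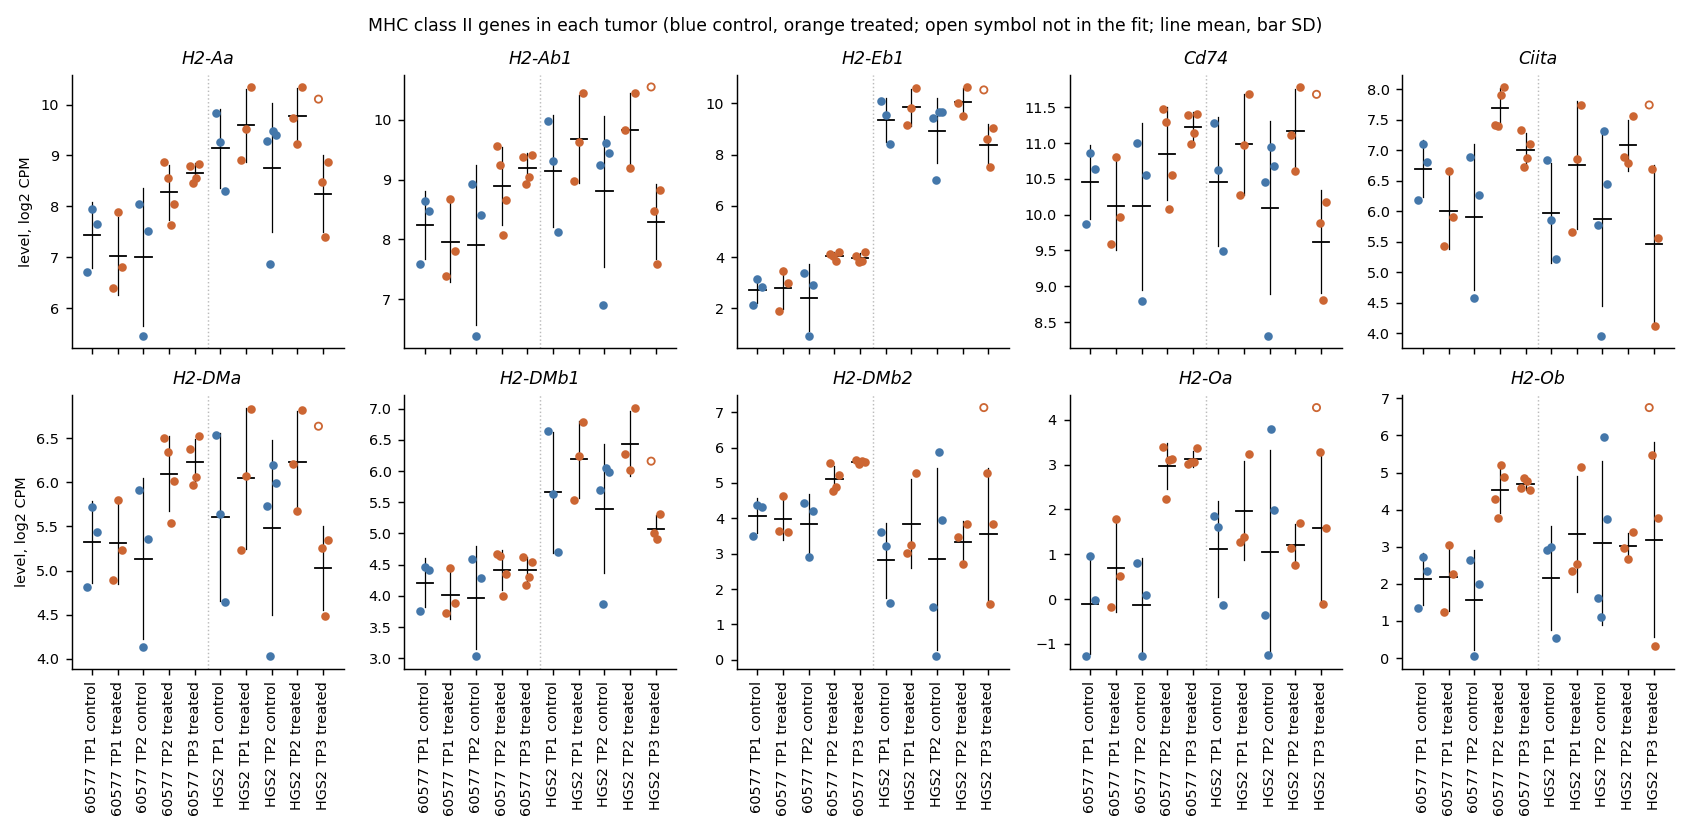
Level of each of the 10 genes (log2 of TMM-scaled CPM) in every tumor, by model, time point and arm, 1 point per tumor, with the group mean as a line, its SD as a bar and an open symbol for the tumor outside the fit. In 60577 the treated TP2 and TP3 tumors lie above all TP2 controls for H2-Oa, H2-Ob, H2-DMb2 and H2-Eb1, and in HGS2 treated and control tumors of TP1 and of TP2 overlap in each gene.

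The genes of H2-DO, the modulator of H2-DM, changed most among the 10. H2-Oa, the α chain, stood at 1.67, 0.342 and 0.987 CPM in the TP2 controls and at 10.5, 4.62, 8.54 and 8.73 CPM in the treated tumors. Every treated tumor lay above every control, and the level was 8.11-fold higher (log2 fold change 3.02, SE 0.59, adjusted p = 0.000641). H2-Ob, the β chain, stood at 6.12, 0.963 and 3.91 CPM in the controls and at 19.3, 13.6, 36.6 and 29.5 CPM in the treated tumors. These groups did not overlap either, at a 6.76-fold higher level (log2 fold change 2.76, SE 0.56, adjusted p = 0.000794). Every treated tumor lay above every control for 4065 of the 16241 genes tested, or 25% of them. H2-Oa and H2-Ob were called under each of the 11 other settings and without each of the 7 tumors in turn.

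Ciita, the coactivator, stood at 118, 23.8 and 76.7 CPM in the TP2 controls and at 170, 169, 241 and 263 CPM in the treated tumors. All treated tumors were above all controls, at 2.90-fold (log2 fold change 1.53, SE 0.42, adjusted p = 0.00639). The call held under all 11 other settings and without each tumor in turn. H2-Eb1, the β chain of the E molecule, stood at 10.4, 1.83 and 7.52 CPM in the controls and at 17.3, 16.4, 14.2 and 18.4 CPM in the treated tumors. These groups were again apart, at 2.52-fold (log2 fold change 1.33, SE 0.44, adjusted p = 0.0185), but the replicate block took the adjusted p to 0.0537.

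The peptide editor genes did not move alike. H2-DMb2 stood at 21.8, 7.39 and 18.4 CPM in the TP2 controls and at 47.6, 27.4, 29.8 and 37.5 CPM in the treated tumors, apart from each other and 2.25-fold higher (log2 fold change 1.17, SE 0.34, adjusted p = 0.00911). Its neighbour and near-identical copy H2-DMb1 stood at 24.0, 8.10 and 19.4 CPM in the controls and at 25.5, 24.9, 15.9 and 20.3 CPM in the treated tumors, which overlapped (log2 fold change 0.34, SE 0.30, adjusted p = 0.351). The partner chain H2-DMa had a log2 fold change of 0.84 (SE 0.35, adjusted p = 0.0544). Reads that both H2-DMb genes share are divided between them by the counting program, so the share of each is uncertain. The log2 ratio of H2-DMb2 to H2-DMb1 ran from -0.27 to -0.07 over the 6 60577 controls, and 6 of 6 lay below 0. It ran from 0.13 to 0.90 in the TP2 treated and from 1.03 to 1.37 in the TP3 treated tumors.

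The most abundant genes of the pathway did not reach the call at TP2. H2-Aa, the α chain of the A molecule, stood at 263, 43.9 and 182 CPM in the controls and at 466, 376, 198 and 264 CPM in the treated tumors, with overlap (log2 fold change 1.00, SE 0.50, adjusted p = 0.0954). H2-Ab1 stood at 486, 83.7 and 339 CPM in the controls and at 756, 607, 270 and 407 CPM in the treated tumors (log2 fold change 0.75, SE 0.49, adjusted p = 0.196). For the invariant chain Cd74 the values were 2045, 445 and 1501 CPM against 2862, 2510, 1083 and 1505 CPM (log2 fold change 0.58, SE 0.45, adjusted p = 0.278). In each of these control replicate 2 was the lowest of all tumors at TP2, and treated replicate 3 lay within the range of the controls. So did treated replicate 4 for H2-Ab1 and Cd74.

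**Figure D3:**
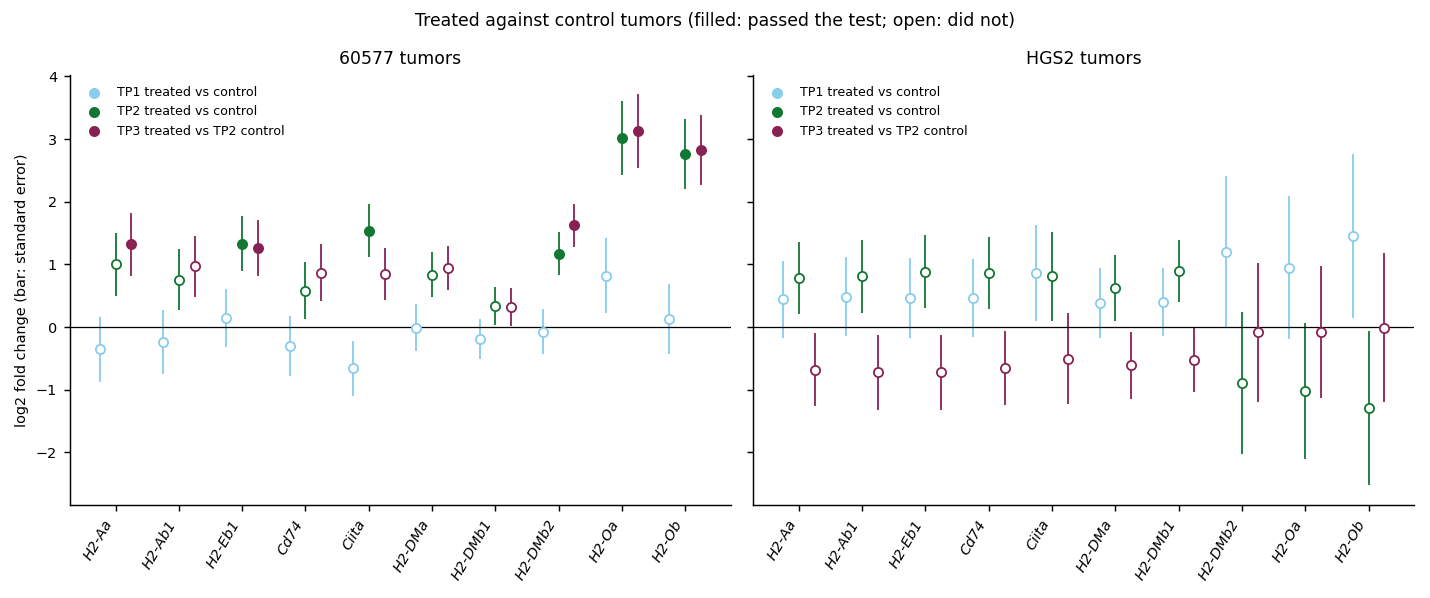
Log2 fold change of each gene with its standard error (edgeR) in the treated against control comparisons of both models, filled where the gene was called. In 60577, H2-Oa (3.02 and 3.12) and H2-Ob (2.76 and 2.82) are the furthest from 0 at TP2 and TP3, and no gene is called in HGS2.

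At 21 days, H2-Oa, H2-Ob, H2-DMb2, H2-Aa and H2-Eb1 were higher in the treated 60577 tumors than in the TP2 controls, which this comparison shares with the one at 7 days. Over all genes, 14.1% were called as higher and 10.4% as lower, none of the latter a class II gene. H2-Oa stood at 7.98, 8.29, 8.22 and 10.3 CPM (8.72-fold, log2 fold change 3.12, SE 0.59, adjusted p = 0.000467). H2-Ob stood at 23.9, 29.0, 27.4 and 22.9 CPM (7.06-fold, log2 fold change 2.82, SE 0.56, adjusted p = 0.000646). Both were again called under each of the 11 other settings and without each of the 7 tumors in turn. H2-DMb2 stood at 50.2, 46.6, 49.6 and 48.1 CPM (3.08-fold, log2 fold change 1.62, SE 0.35, adjusted p = 0.00120). H2-Eb1 stood at 16.2, 14.1, 14.3 and 18.5 CPM (2.39-fold, adjusted p = 0.0269). H2-Aa stood at 444, 352, 378 and 458 CPM (2.50-fold, log2 fold change 1.32, SE 0.50, adjusted p = 0.0383). All 5 lay above every TP2 control, as 28.2% of all genes did, and so did H2-DMa, whose log2 fold change of 0.94 (adjusted p = 0.0367) was under the fold limit. Ciita, at 162, 106, 117 and 138 CPM, overlapped the controls (log2 fold change 0.84, SE 0.41, adjusted p = 0.101). H2-Ab1 (0.97), Cd74 (0.87) and H2-DMb1 (0.31) were not called. DESeq2 called 5 genes and limma-voom 7. Under the replicate block 3 genes were called, since H2-Aa (adjusted p = 0.0785) and H2-Eb1 (adjusted p = 0.0740) no longer passed. The call of H2-Aa held without 2 of the 7 tumors and that of H2-Eb1 without 5 of them. Without TP2 control replicate 1, 9 genes were called, and without TP2 control replicate 2 or TP3 treated replicate 4, 3 were.

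Treated 60577 tumors also differed between time points. H2-Ob stood at 2.28, 8.27 and 4.76 CPM at TP1, below each of its TP2 values (log2 fold change of TP2 over TP1 2.28, SE 0.54, adjusted p = 0.0136). H2-Oa stood at 0.813, 3.36 and 1.36 CPM at TP1 and was also higher at TP2 (2.14, SE 0.56, adjusted p = 0.0196). Ciita (1.63, SE 0.42, adjusted p = 0.0196) and H2-DMb2 (1.11, SE 0.34, adjusted p = 0.0360) completed the 4 called genes, against 3.65% of all genes called as higher. In these 4 and in H2-Eb1 all TP2 tumors lay above all TP1 tumors, as for 13.6% of all genes. The calls rest on few tumors: none remained without TP1 treated replicate 1 or replicate 3, 2 without TP2 treated replicate 4, and under the replicate block H2-Ob alone, with adjusted p = 0.0558 for H2-Oa, 0.0645 for Ciita and 0.0938 for H2-DMb2. Not called were H2-Aa (1.18), H2-Eb1 (1.16), H2-Ab1 (0.93), H2-DMa (0.79), Cd74 (0.74) and H2-DMb1 (0.39). Between TP3 and TP2 no class II gene was called by any of the tools and none had an unadjusted p under 0.05, with 8.10% of all genes called. Ciita was lower in all TP3 tumors than in all TP2 tumors, as 14.5% of all genes were (log2 fold change -0.69, SE 0.38, adjusted p = 0.157). Controls did not differ between TP2 and TP1 in any of the 10 genes by edgeR, DESeq2 or limma-voom, none had an unadjusted p under 0.05, and 0% of all genes were called by edgeR (1494 had an unadjusted p under 0.05).

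In HGS2 tumors no class II gene was called in any comparison of treated and control tumors or of time points, by edgeR, DESeq2 or limma-voom. Over all genes, 0% were called in each of these 6 comparisons by edgeR, with 153 to 1644 genes at an unadjusted p under 0.05. H2-Ab1 stood at 1007, 637 and 280 CPM in the TP1 controls and at 501, 793 and 1398 CPM in the treated tumors. At TP2 it stood at 610, 120, 781 and 695 CPM in the controls and at 910, 586 and 1405 CPM in the treated tumors, and at TP3 at (1502), 357, 193 and 454 CPM. The groups overlapped at both times (log2 fold change 0.48, SE 0.63, at TP1 and 0.81, SE 0.59, at TP2). The approximate 95% interval at TP2, from the SE and the normal distribution, was -0.34 to 1.96 on the log2 scale and held the value of 0.75 found in 60577.

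H2-DO spread widely within the HGS2 groups. H2-Ob stood at 7.51, 7.96 and 1.40 CPM in the TP1 controls and at 5.01, 5.69 and 35.6 CPM in the treated tumors. At TP2 it stood at 2.97, 2.08, 61.6 and 13.3 CPM in the controls, at 7.67, 6.27 and 10.5 CPM in the treated tumors, and at TP3 at (108), 44.5, 1.17 and 13.7 CPM. TP1 treated replicate 3, TP2 control replicate 3 and TP3 treated replicate 2 stood above the other tumors of their groups in the fit, and the log2 fold change of H2-Ob at TP2 was -1.29 (SE 1.23, adjusted p = 0.807). H2-Oa had the same high tumors, at 13.9 CPM in TP2 control replicate 3, 9.64 in TP3 treated replicate 2 and 9.40 in TP1 treated replicate 3 (TP2 log2 fold change -1.02, SE 1.08, adjusted p = 0.822). Ciita stood at 55.0, 15.5, 160 and 87.5 CPM in the TP2 controls and at 118, 111 and 188 CPM in the treated tumors (log2 fold change 0.81, SE 0.71, adjusted p = 0.787).

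From TP2 to TP3, treated HGS2 tumors had lower values of 7 of the 10 genes without overlap, which held for 9.14% of all genes, although none passed the adjusted test. H2-Eb1 stood at 1025, 735 and 1596 CPM at TP2 and at (1474), 391, 181 and 530 CPM at TP3 (log2 fold change -1.61, SE 0.65, adjusted p = 0.451). Cd74 stood at 2208, 1567 and 3528 CPM at TP2 and at (3286), 944, 448 and 1163 CPM at TP3 (-1.51, SE 0.63, adjusted p = 0.464). The other 5 were H2-Aa, H2-Ab1, H2-DMa, H2-DMb1 and Ciita, and 6 of the 7, all but Ciita, had an unadjusted p under 0.05. The bracketed replicate 1, which the fit left out, lay within the TP2 range for Cd74 and H2-Eb1 and above it for H2-Ab1 (1502 CPM) and Ciita (214 CPM). With it in the fit the groups of all 7 genes overlapped and the log2 fold changes came to between -1.06 (H2-DMb1) and -0.54 (Ciita), with -0.74 for Cd74 and -0.63 for H2-Ab1, so the separation depends on leaving out this tumor.

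The treatment effect was compared between models by the difference of the log2 fold changes, HGS2 minus 60577. At TP1 none of the 10 differences was called by any of the 3 tools and none had an unadjusted p under 0.05, against 1.45% of all genes called. At TP2, H2-Oa was lower (difference -4.03, SE 1.31, adjusted p = 0.0487), beside 3.21% of all genes called as lower. H2-Ob had a difference of nearly the same size (-4.05, SE 1.43, adjusted p = 0.0668) and H2-DMb2 one of -2.05 (SE 1.21, adjusted p = 0.260). For H2-Ab1 the difference was 0.06 (SE 0.79), and for Ciita -0.72, H2-Eb1 -0.45, H2-Aa -0.22, H2-DMa -0.21, Cd74 0.28 and H2-DMb1 0.56, none of them called. The call of H2-Oa is weak, since limma-voom called none of the 10, DESeq2 called 2, and the call was lost without any 1 of 11 of the 14 tumors and under the replicate block (-3.90, adjusted p = 0.0969). Without HGS2 TP2 control replicate 3, the tumor with the highest H2-Oa of the fit, the difference was -2.52 (adjusted p = 0.143).

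The balance between members was followed by log2 ratios within each tumor, and treated and control tumors were compared within TP1 and TP2 by exact two-sided permutation over 700 arrangements (smallest possible p 0.00143). None of the 8 ratios passed after adjustment over the 8, although without TP1 treated replicate 1 the first pair of ratios given here did (both adjusted exact permutation p = 0.0343). In 60577, the ratio of H2-Ob to H2-DMb1 was on average 1.39 higher in treated tumors (exact permutation p = 0.0143, adjusted p = 0.0571), by 0.24 at TP1 and by 2.53 at TP2. Cd74 to H2-Ab1, invariant chain over β chain, had a difference of -0.15 (exact permutation p = 0.00714, adjusted p = 0.0571). H2-Ab1 to Ptprc, class II over the pan-leukocyte gene, had a difference of -1.12 (exact permutation p = 0.0229, adjusted p = 0.0610), which was -1.44 at TP1 and -0.79 at TP2. Ciita to H2-Ab1 went from a difference of -0.42 at TP1 to one of 0.80 at TP2 (mean 0.19, exact permutation p = 0.539, adjusted p = 0.862). At TP2 this log2 ratio stood at -2.149, -1.847, -0.163 and -0.628 in the treated tumors and from -2.141 to -1.815 in the controls. The TP2 difference thus came from treated replicates 3 and 4, while replicates 1 and 2 stood near the controls. In HGS2 the 4 differences lay between -0.24 and 0.21, with adjusted exact permutation p from 0.594 to 0.994.

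**Figure D4:**
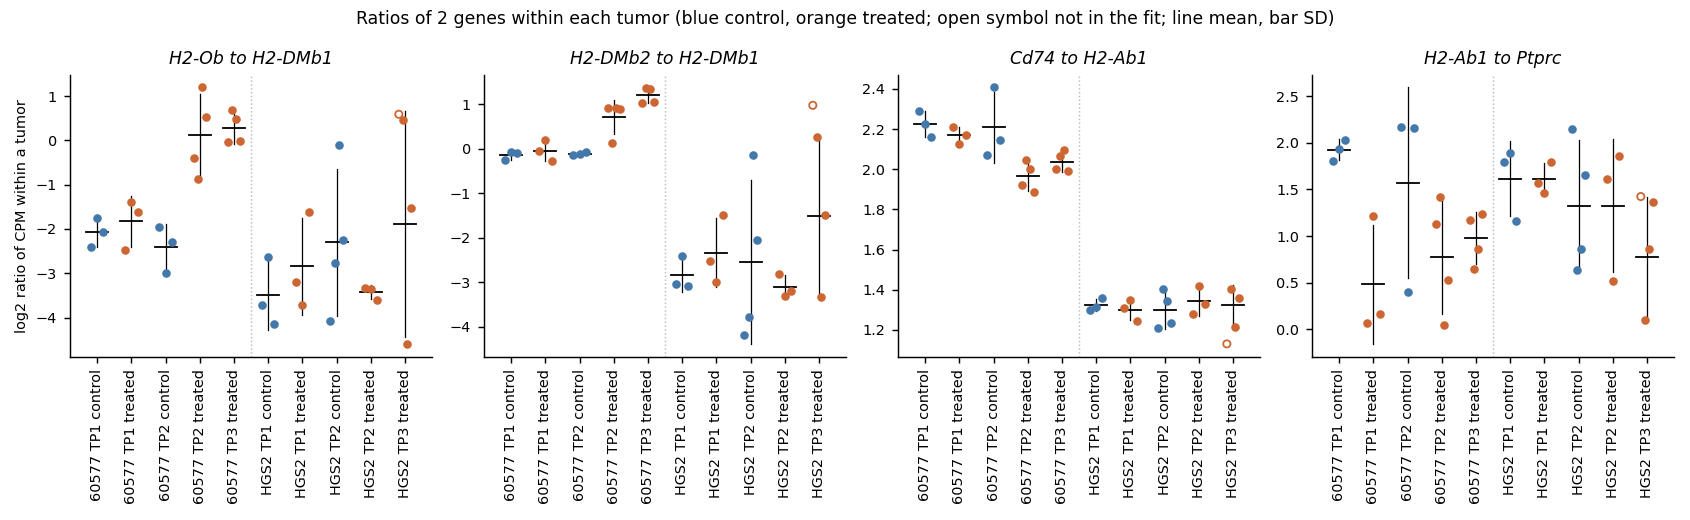
Log2 ratios of gene pairs within each tumor, by model, time point and arm, 1 point per tumor, with the group mean as a line, its SD as a bar and an open symbol for the tumor outside the fit. In 60577 the ratio of H2-Ob to H2-DMb1 runs from -2.98 to -1.74 in the 6 controls and reaches 1.20 in the treated tumors.

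The wider class II pathway was followed with 34 further genes in 6 lists, of which 33 were tested. In 60577 at TP1, 7 rose and none fell (median log2 fold change 0.47 against -0.01 over all genes, of which 9.52% rose), and 5 of the 7 belonged to the 9 genes of endosomal proteolysis and loading: Ctsd (2.00), Psap (1.52), Ctsb (1.49), Ctss (1.20) and Ctsl (1.16). Cathepsin S, from Ctss, is known for cutting the invariant chain. Summed levels of these 9 genes ran from 2787.3 to 3412.5 CPM in the TP1 controls. In 60577 cells grown alone, scaled apart, they ran from 2165.3 to 2667.1 CPM, so the list is not particular to cells with class II RNA. The other 2 of the 7 were Cd80, a ligand of CD28 on T cells (3.09), and Spi1, the myeloid factor PU.1 (1.63). At TP2, 10 rose and none fell (median 0.38 against 0.04, with 15.0% of all genes called as higher). They included 3 of the 4 costimulation genes (Cd40 2.20, Icosl 1.80, Cd80 1.40), Irf4 (2.54) and Irf8 (1.66) from the list of inputs to Ciita, and March1, the ligase that removes class II from the surface (1.10). At TP3, 8 rose and 1 fell (median 0.67 against -0.01, with 14.1% of all genes called as higher). Irf4 stood at 3.07 and Cd40 at 2.16, while Jak2, a kinase of the interferon gamma receptor, fell (-1.26). Of all genes, 6.03% were called as lower at TP1, 9.36% at TP2 and 10.4% at TP3. None of the 7 factors that bind the X and Y boxes was called at TP1, TP2 or TP3, although Rfx5 had an adjusted p of 0.000777 at TP2 with a log2 fold change of 0.76. In HGS2 none of the 33 was called in these comparisons, where edgeR called 0% of all genes.

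The class II locus also holds H2-Eb2 and H2-Ea-ps, the α chain gene of the E molecule, which the C57BL/6 reference annotates as a pseudogene. H2-Ea-ps stood at 3.73, 0.838 and 2.88 CPM in the 60577 TP2 controls and at 7.59, 9.03, 14.8 and 16.2 CPM in the treated tumors. The groups were apart (log2 fold change 2.26, SE 0.51, adjusted p = 0.00179). At TP3 it stood at 5.82, 4.15, 5.81 and 5.46 CPM (1.10, SE 0.50, adjusted p = 0.0756). H2-Eb2 rose at both times (1.81, adjusted p = 0.00867, and 2.20, adjusted p = 0.00281).

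Some markers of the cells that carry class II were higher in the same tumors and others were not, and their part in these results was not tested. Shares of all genes called in 60577 as higher were 9.52% at TP1, 15.0% at TP2 and 14.1% at TP3. The shares called as lower were 6.03%, 9.36% and 10.4%. At TP1 in 60577, none of the 8 B cell markers was called (median log2 fold change 1.39), and 2 of 8 dendritic cell and 2 of 8 macrophage markers rose. At TP2, 8 of 8 B cell markers rose (median 4.01), with 7 of 8 of dendritic cells (median 1.83), 5 of 6 of T cells (median 2.74) and none of 8 of macrophages (median 0.43). At TP3, 8 of 8 B cell markers (median 4.69), 4 of 8 dendritic cell, 2 of 8 macrophage and 6 of 6 T cell markers rose. Epithelial markers fell at the same times, 5 of 6 at TP1, 4 of 6 at TP2 and 6 of 6 at TP3, and 4 of 4 adipocyte markers rose at each. Of 4 neutrophil markers, 4 rose at TP1 and 3 fell at TP2 and at TP3. Summed B cell marker levels ran from 3.88 to 23.1 CPM in the TP2 controls, from 17.7 to 80.7 CPM in the TP1 treated, from 89.1 to 261 CPM in the TP2 treated and from 327 to 423 CPM in the TP3 treated tumors. No B cell marker was at 0 in any 60577 tumor. The log2 ratio of H2-Ob to the B cell gene Cd79a ran from 0.187 to 1.959 in the 6 60577 controls. It ran from -0.717 to 1.296 in the TP1 treated tumors and had a mean of -0.154 in the TP2 treated tumors. In the TP3 treated tumors it ran from -1.416 to -1.138, below every control. This ratio was not tested. Macrophage sums ran from 381 to 941 CPM in the TP2 controls and from 490 to 1200 CPM in the TP2 treated tumors, which overlapped.

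In HGS2 none of these marker lists held a called gene in the treatment comparisons, where edgeR called 0% of all genes. B cell sums spread from 8.14 to 429 CPM in the TP2 controls and from 18.9 to 41.1 CPM in the treated tumors. The HGS2 tumors with the highest B cell sums were the bracketed TP3 treated replicate 1 (886 CPM), TP2 control replicate 3 (429), TP3 treated replicate 2 (327) and TP1 treated replicate 3 (268). These 4 also had the highest 4 values of H2-Ob (108, 61.6, 44.5 and 35.6 CPM), of H2-Oa (19.3, 13.9, 9.64 and 9.40 CPM) and of H2-DMb2 (from 38.5 to 140 CPM). The log2 ratio of H2-Ob to Cd79a overlapped between the arms of HGS2. It ran from -1.184 to 1.903 in the controls and from -0.944 to 2.285 in the treated tumors of the fit. In the difference between models at TP2, 5 of the 8 B cell markers were called lower (median -6.24) beside H2-Oa, as were 3.21% of all genes.

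**Figure D5:**
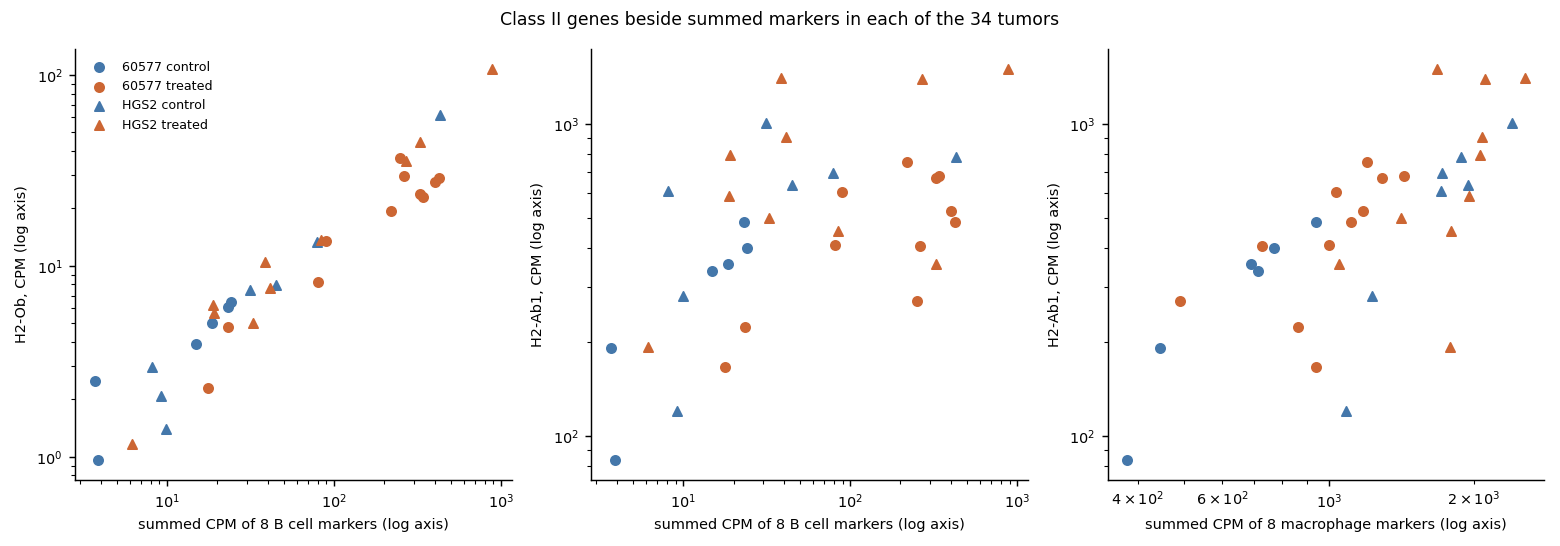
H2-Ob against the summed level of 8 B cell markers, and H2-Ab1 against that sum and against the sum of 8 macrophage markers (all in CPM, log axes), 1 point for each of the 34 tumors, circles for 60577, triangles for HGS2, blue for control and orange for treated. The highest H2-Ob values of HGS2, up to 108 CPM, belong to the tumors with the highest B cell sums, up to 886 CPM.

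Genes whose course over the tumors was most like that of the class II core were found by the root mean square difference of log2 CPM, centred in each model, from the mean course of H2-Aa, H2-Ab1, H2-Eb1 and Cd74. Over the 17 60577 tumors the nearest 8 were Ly86 (0.240), Aif1 (0.284), P2ry13 (0.321), Pvrig (0.337), Plbd1 (0.342), Gbp7 (0.364), Rab11fip4 (0.370) and Fgl2 (0.371), where the median gene lay at 0.912. Over the 16 HGS2 tumors they were Plbd1 (0.274), Slamf8 (0.333), Cass4 (0.337), AW112010 (0.350), Pld4 (0.375), Tnfrsf14 (0.413), Ly86 (0.425) and Tlr9 (0.435), against a median of 1.003. Ly86 and Plbd1 were near in both models. Other class II genes stood at unequal distances: in 60577, H2-DMa lay at 0.218 and H2-DMb2 at 0.326, but H2-Ob lay at 0.916, with 8271 genes closer, and H2-Oa at 1.02, with 11408 closer. In HGS2, Ciita lay at 0.441, with 8 genes closer, and H2-Oa at 1.05, H2-DMb2 at 1.12 and H2-Ob at 1.31. All these values are descriptions over tumors that share libraries and depth.

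Control tumors of the models differed most in H2-Eb1. It stood at 4.33, 8.77, 7.10, 10.4, 1.83 and 7.52 CPM in the 60577 controls and at 1096, 757, 339, 686, 129, 810 and 801 CPM in the HGS2 controls. Every HGS2 control was above every 60577 control, and the level was 99.9-fold higher (log2 fold change 6.64, SE 0.51, adjusted p = 1.19e-10). H2-Aa was 3.31-fold higher (1.73, SE 0.42, adjusted p = 0.00138), H2-DMb1 2.97-fold (1.57, SE 0.32, adjusted p = 0.000258) and H2-Oa 3.34-fold (1.74, SE 0.67, adjusted p = 0.0329). Over all genes 13.2% were called as higher in HGS2 and 8.81% as lower, and none of the 10 was among the latter. The call of H2-Oa was lost under the replicate block (adjusted p = 0.0510) and without 1 control in 7 of 13 cases, while those of the other 3 held in all 13. Cd74 (0.06, SE 0.39) and Ciita (-0.25, SE 0.44) were not called. Nor were H2-Ab1, H2-Ob, H2-DMa and H2-DMb2 in the main fit, although H2-Ab1 had an unadjusted p under 0.05 by edgeR. Under the 11 other settings the log2 fold change of H2-Ab1 ran from 0.878 to 1.289 and that of H2-Ob from 0.875 to 1.778. That of H2-DMa ran from 0.334 to 0.731 and that of H2-DMb2 from -1.084 to 0.003. Within a tumor, the linear ratio of H2-Eb1 to H2-Ab1 kept a narrow range, from 0.0202 to 0.0229 in 60577 controls and from 1.04 to 1.21 in HGS2 controls, and it reached 0.0529 in treated 60577 tumors.

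H2-Ea-ps showed the opposite pattern. It had 27 to 114 counts in each 60577 control and none in any HGS2 control, so that its geometric mean of 2.48 CPM in 60577 was at least 16.6-fold higher than the limit set by 3 counts per library in HGS2. Among all HGS2 tumors only TP3 treated replicate 3 had counts (6, or 0.138 CPM). C57BL/6 mice are known to carry a deletion that silences this gene, and FVB mice carry another class II haplotype. Levels of H2-Eb1 and H2-Ea-ps RNA do not show whether an E molecule was made in either model, which was not measured. All reads were mapped to the C57BL/6J genome, whose alleles differ from those of FVB at this locus, so that a difference in RNA and a difference in how reads map cannot be told apart for any H2 gene between the models. Within a model all tumors share 1 host strain. Ptprc (1.32, SE 0.31, adjusted p = 0.000885), 6 of 8 macrophage markers and 3 of 8 B cell markers were also higher in HGS2 controls, as were 13.2% of all genes.

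The cancer cells grown alone held few class II transcripts. Their libraries were scaled apart from the tumors, so levels stand side by side with no test between them. H2-Aa had 0, 0, 0 and 2 counts in 60577 replicates 1 and 2 and HGS2 replicates 1 and 2, H2-Ab1 had 1, 0, 1 and 0, and H2-Eb1 had 0, 0, 4 and 1. Ciita had 3, 2, 1 and 0 counts, and H2-Ob had none in any library. H2-Oa had 0 to 5 counts and H2-DMb2 0 to 4 in 60577 cells, and neither had a count in HGS2 cells. A count of 0 allows up to 3 counts, or 0.0707 to 0.0948 CPM at these depths, and covers counting error only. Expression below that was not detectable, and tumors of the same lines held 15.5 CPM of Ciita or more.

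Cd74, H2-DMa and H2-DMb1 alone passed the filter in the cell lines. Cd74 stood at 3.81 and 5.68 CPM in 60577 cells and at 0.572 and 0.216 CPM in HGS2 cells, lower in HGS2 (log2 fold change -3.61, SE 0.60, adjusted p = 0.0178). H2-DMb1 went the other way, at 0.110 and 0.179 CPM in 60577 cells and 5.76 and 1.94 CPM in HGS2 cells (4.68, SE 0.77, adjusted p = 0.0177). The lower side of each call rests on few counts, 8 to 17 for Cd74 in HGS2 cells and 4 to 8 for H2-DMb1 in 60577 cells. The limits given above on reads shared with H2-DMb2 and on mapping to C57BL/6J hold for H2-DMb1 here too. H2-DMa stood at 1.64 and 1.88 CPM beside 1.31 and 1.24 CPM (-0.47, SE 0.42, adjusted p = 0.476). Over all genes 15.9% of the 13742 tested were called in either direction. Both calls were lost without either 60577 library, and nothing in the labels says that the 2 libraries of a line came from separate cultures. The lowest tumor value of Cd74 was 445 CPM in 60577 and 317 CPM in HGS2.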

How the data were processed

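The authors deposited expected counts per gene from RSEM, which need not be whole and were rounded here. Per the labels and the study's methods, rRNA-depleted, strand-specific paired reads were trimmed with Trim Galore 0.6.5 and aligned with STAR 2.7.0f to the C57BL/6J genome GRCm38. RSEM divides reads that fit several genes among them, which matters for H2-DMb1 and H2-DMb2.

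Groups came from the sample labels, and each tumor is from 1 mouse per the study's methods. Same-numbered treated and control tumors deviated together at TP2, with 3 of 3 correlations over 0.1 in each model (0.11 to 0.14 in 60577 and 0.14 to 0.30 in HGS2). At TP1, 2 of 3 correlations were over 0.1 in 60577 (-0.05 to 0.13) and 0 of 3 in HGS2. The main fit held no such block, so values with the replicate number as a block stand beside each result whose call they change. The study's own tables leave out HGS2 TP3 treated replicate 1, and so did the tests here (33 of 34 tumors). The filter on low counts (1 CPM, 25% of libraries) left 16241 genes in tumors and 13742 in cell lines. Counts were scaled by TMM and tested with the quasi-likelihood test of edgeR 4.0.16 (R 4.3.3), the 5 groups of a model in 1 fit, with Benjamini-Hochberg adjustment over all genes tested and calls at 0.05 and an absolute log2 fold change above 1. Differences between models came from a joint fit of the 10 groups. RPKM used the summed exon length of GENCODE M21. Log2 CPM for ratios and profiles had a prior count of 2. Ratios were tested by exact permutation (scipy 1.17.1). The script was tested on simulated counts. Alternatives used DESeq2 1.42.0, limma-voom 3.58.1, other filters and scalings, offsets for length and GC content, a replicate block, other fits and the removal of each library in turn.

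The 10 genes, the lists of 34 pathway and 63 marker genes and the tests were chosen with earlier results of these data known. The rule was to name all 10 genes in every comparison, listed genes, and in each model the 8 genes of most similar course; in HGS2 and where no gene was called, some of the 10 are given only by their range or count, and of the lists only some genes are named.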

Additional observations from a re-analysis of the deposited data

Results flagged for a closer look

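Among 30 combinations of gene and group with 4 tumors each, 5 held a tumor far from the others of its group by Dixon's criterion, which flags about 1 in 20 groups by chance. In HGS2 TP2 controls, replicate 2 was the lowest of 4 in H2-Aa (116 CPM, others 620 to 717), H2-Ab1 (120 CPM, others 610 to 781), H2-Eb1 (129 CPM, others 686 to 810) and H2-DMb1 (14.6 CPM, others 51.5 to 65.8). The same tumor had 6.56% of its counts in pancreatic acinar genes, whose part in these values was not tested. In 60577 TP3 treated tumors, replicate 4 was the highest of 4 in H2-Oa (10.3 CPM, others 7.98 to 8.29).

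The treatment effect on H2-Oa at TP2 differed between the models, HGS2 minus 60577, by -4.03 on the log2 scale (edgeR, adjusted p = 0.0487). This call is weak. It was not made by limma-voom, and it was lost under the replicate block (edgeR, adjusted p = 0.0969) and on leaving out any 1 of most of the tumors.

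HGS2 TP3 treated replicate 1, which the main fit left out, stood above the highest of the 7 HGS2 controls in 9 of the 10 genes. H2-Aa stood at 1103 CPM (highest control 919), H2-Ab1 at 1502 (1007), H2-Eb1 at 1474 (1096) and Cd74 at 3286 (2478). H2-DMa stood at 99.3 CPM (92.4), H2-DMb2 at 140.0 (59.2), H2-Oa at 19.3 (13.9), H2-Ob at 108 (61.6) and Ciita at 214 (160). Its summed B cell markers were 886 CPM.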

How the results depend on the processing

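No result was reversed, a direction being read only for values past the threshold. The number of class II genes called in 60577 at TP2 (5) became 3 with both models fitted together, and ran from 3 to 7 without 1 tumor. At TP3 (5) it was 3 under the replicate block, 3 under the replicate block with the length and GC offset, 2 with both models together and 3 with only the compared groups, and ran from 3 to 9 without 1 tumor. For treated TP2 over TP1 (4) it was 1 under the replicate block, 0 with both models together and 1 with only the compared groups, and ran from 0 to 5 without 1 tumor. For the difference between models at TP2 (1) it was 0 with no filter, filterByExpr, limma-voom, the replicate block, the block with the offset, all 34 tumors or only the compared groups, 2 by DESeq2, 2 without the 3 HGS2 tumors rich in acinar genes (a setting chosen after seeing the data), and 0 to 1 without 1 tumor. For HGS2 over 60577 controls (4) it ran from 3 to 5 without 1 tumor and from 3 to 6 under other settings, and for the cell lines (2) from 0 to 2 without 1 library. The other counts of class II genes were 0 under every setting run. The cause of these shifts was not tested.

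Leaving out 1 tumor took the 60577 ratio of H2-Ob to H2-DMb1 from 1.21 to 1.55, with adjusted exact p = 0.0343 without TP1 treated replicate 1, and that of Cd74 to H2-Ab1 from -0.18 to -0.10, with adjusted exact p = 0.0229 without TP1 control replicate 3 and 0.0343 without TP1 treated replicate 1.

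Counts over all genes moved by more than 1.5 times in treated 60577 TP2 over TP1 (976; 230 to 1154 under other settings, 251 to 1386 without 1 tumor), treated TP3 over TP2 (1315; 768 to 2152 without 1 tumor), the difference between models at TP1 (235; 11 to 721, 62 to 647) and at TP2 (1120; 679 to 1666, 365 to 1474), HGS2 over 60577 controls (3577; 3347 to 5377) and the cell lines (2189; 2157 to 3849, 503 to 3458). At 60577 TP1 (2525) they ran from 1605 to 2977. Where edgeR called 0, DESeq2 called 70 genes between 60577 control times, 0.652% of the genes given an adjusted p for treated HGS2 TP3 over TP2, 7 genes between HGS2 control times and 1 to 8 in the other HGS2 comparisons, and leaving out 1 tumor gave 36 (60577 controls, without TP2 control replicate 2) and 51 (HGS2 controls, without TP1 control replicate 2).

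The replicate block changed no call of a class II gene other than those given with their results. HGS2 groups had 3 or 4 tumors, with SE of 0.50 to 1.3. Changes of the size seen in 60577 for H2-Aa or Cd74 could not be told from 0 there. In 60577 itself neither gene was called at TP2, and Cd74 was not called at TP3.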
